A study of Homo sapiens with 12 samples.

Results

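Semaphorins are secreted or membrane-bound ligands, plexins are their main receptors and neuropilins are co-receptors that hold secreted class 3 semaphorins on plexins. Bound plexins act on small GTPases and so on the actin skeleton and integrins, a signal first known from axon guidance and used by lymphocytes and dendritic cells in migration and cell contact. The family was set by name, 31 symbols in all, because SEMA7A and PLXNA1 responded to EBF1 in these arrays. Of these, 30 genes (19 semaphorins, 9 plexins and 2 neuropilins) had 32 rows among 20546 rows with a gene symbol, and SEMA4C was not analysed here. SEMA4D and NRP2 each had 2 rows, and the brighter row stands for the gene in counts.

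RNA came from L-428 and L-1236, established Hodgkin lymphoma lines, whose cells descend from B cells that lost much of their B-cell programme. In each line, cells were transduced with a construct for the fluorescent protein tGFP, an internal ribosome entry site and EBF1 (tGFP/EBF1), or with tGFP alone (tGFP). EBF1 is a transcription factor of early B-cell development. All 4 groups (L-428 tGFP/EBF1, L-428 tGFP, L-1236 tGFP/EBF1 and L-1236 tGFP) were cultured for 8 days and sorted for tGFP, with 3 independent samples a group on Affymetrix whole-transcript arrays, so the number of arrays limits the precision. EBF1 was expressed from the vector, and its row, also annotated with PDGFRB, lay between 12.93 and 12.98 on the L-428 tGFP/EBF1 arrays, against 8.34 to 8.63 on the L-428 tGFP arrays, and between 13.07 and 13.27 on the L-1236 tGFP/EBF1 arrays, against 7.13 to 7.24 on the L-1236 tGFP arrays (log2). These are 22.8-fold and 62.8-fold differences (limma, adjusted p = 6.87e-18 and 4.47e-20).

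The Hodgkin cell markers TNFRSF8 (CD30), FUT4, CCL17, IRF4, FSCN1 and STAT6 lay above the array median on all 12 arrays, and CCL22, TRAF1 and IL13 on 9, 10 and 7 of them. All 3 T-cell and all 3 myeloid markers lay below it on every array, as did the B-cell marker MS4A1, while PAX5 lay above it on all arrays and CD79A on 3. Of the genes listed as stromal markers, COL1A1 and PECAM1 lay above it on all arrays and COL1A2 on 1. The samples were sorted cells of established lines, and these rows are not taken to show stromal cells. The part of these genes in the results was not tested. Array medians ranged from 7.19 to 7.31. Replicate 3 of L-428 tGFP (interquartile range 2.28, against 2.49 and 2.47 in its group) and, in L-1236 tGFP/EBF1, replicate 1 (2.17, next to 2.31 and 2.26 there) stood apart from their groups, and fits were repeated without them. Because RNA was pooled over cells, a change in the share of cells that express a gene and a change of RNA per cell cannot be told apart.

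Below, a level is a log2 signal of 1 array row, never set against another gene's level, and a change is a difference of group means on that scale. "Rose", "fell" and "differed" are used of rows with an adjusted p of 0.05 or less in a limma fit over all 20546 rows. SEMA7A and PLXNA1 chose the family through their EBF1 contrasts and are described there with no test. The other 28 genes were taken by family name.

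SEMA7A is a semaphorin tethered to the cell surface by a lipid (GPI) anchor, and its known receptors are PLXNC1 and beta-1 integrins. In L-428 it was at 8.85, 8.92 and 8.86 with tGFP/EBF1, against 7.55, 7.51 and 7.64 with tGFP. In L-1236 it was at 10.80, 10.88 and 10.79 with tGFP/EBF1, against 9.46, 9.41 and 9.41 with tGFP. Within each line the groups did not overlap, with EBF1 on top, and L-428 with EBF1 still lay below L-1236 without it. The change was 1.31 (SE 0.058, 2.48-fold) in L-428 and 1.40 (SE 0.058, 2.63-fold) in L-1236.

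PLXNA1 is a transmembrane plexin that receives class 3 semaphorins together with a neuropilin, and SEMA6D directly. In L-1236 it was at 10.20, 10.38 and 10.28 with tGFP/EBF1, against 8.54, 8.55 and 8.43 with tGFP. In L-428 it was at 7.995, 8.10 and 8.12 with tGFP/EBF1, against 8.19, 8.15 and 7.95 with tGFP. The L-1236 groups lay apart and the L-428 groups overlapped. The change was 1.78 (SE 0.071, 3.43-fold) in L-1236 and -0.028 (SE 0.071) in L-428.

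The stretches before the transcription starts of SEMA7A, PLXNC1 and PLXNA1 are shown because these genes had the largest EBF1 changes in the family. Each gives the 250 bases upstream of the 5′-most start in RefSeq (GRCh38.p14), read 5′ to 3′ on the gene's strand, from chr15:74433959-74434208 (minus strand), chr12:94148327-94148576 (plus) and chr3:126982865-126983114 (plus). Capitals mark the core CCCNNGGG of the EBF1 motif.
SEMA7A: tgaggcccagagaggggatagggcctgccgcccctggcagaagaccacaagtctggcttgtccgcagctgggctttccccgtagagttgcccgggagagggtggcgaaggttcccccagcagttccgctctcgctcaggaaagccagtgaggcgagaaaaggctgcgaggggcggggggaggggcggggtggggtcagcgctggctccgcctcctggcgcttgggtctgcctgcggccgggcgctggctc
PLXNC1: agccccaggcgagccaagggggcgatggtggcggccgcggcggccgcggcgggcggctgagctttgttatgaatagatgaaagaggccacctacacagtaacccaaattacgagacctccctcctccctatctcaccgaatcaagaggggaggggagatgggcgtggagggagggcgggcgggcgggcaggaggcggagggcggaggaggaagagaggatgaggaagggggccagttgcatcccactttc
PLXNA1: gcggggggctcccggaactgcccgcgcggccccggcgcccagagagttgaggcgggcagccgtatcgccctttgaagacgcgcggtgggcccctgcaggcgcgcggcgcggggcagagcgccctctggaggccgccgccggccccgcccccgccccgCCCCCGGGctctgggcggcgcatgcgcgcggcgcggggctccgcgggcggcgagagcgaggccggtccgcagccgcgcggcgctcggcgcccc
The core and the longer motif TCCCNNGGGA, which contains it, read the same on both strands and were searched in windows of 300 bases (250 before to 50 after each start). PLXNA1 held 1 core match, beginning at position -93 from its start, and neither the 2 windows of SEMA7A nor the 2 of PLXNC1 held any. Of 26 family genes with a window, 9 (34.6%) held a core match and 1, SEMA3B, the longer motif, against 21.9% and 1.49% of all 27305 symbols with a window. A gene can have several windows, each a further place for a match. Counted by window, 13 of 47 family windows (27.7%) held a core match, against 19.1% of all 35116 windows. The G and C content of the windows was not taken into account. The letters are a description and do not show binding.

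**Figure D1:**
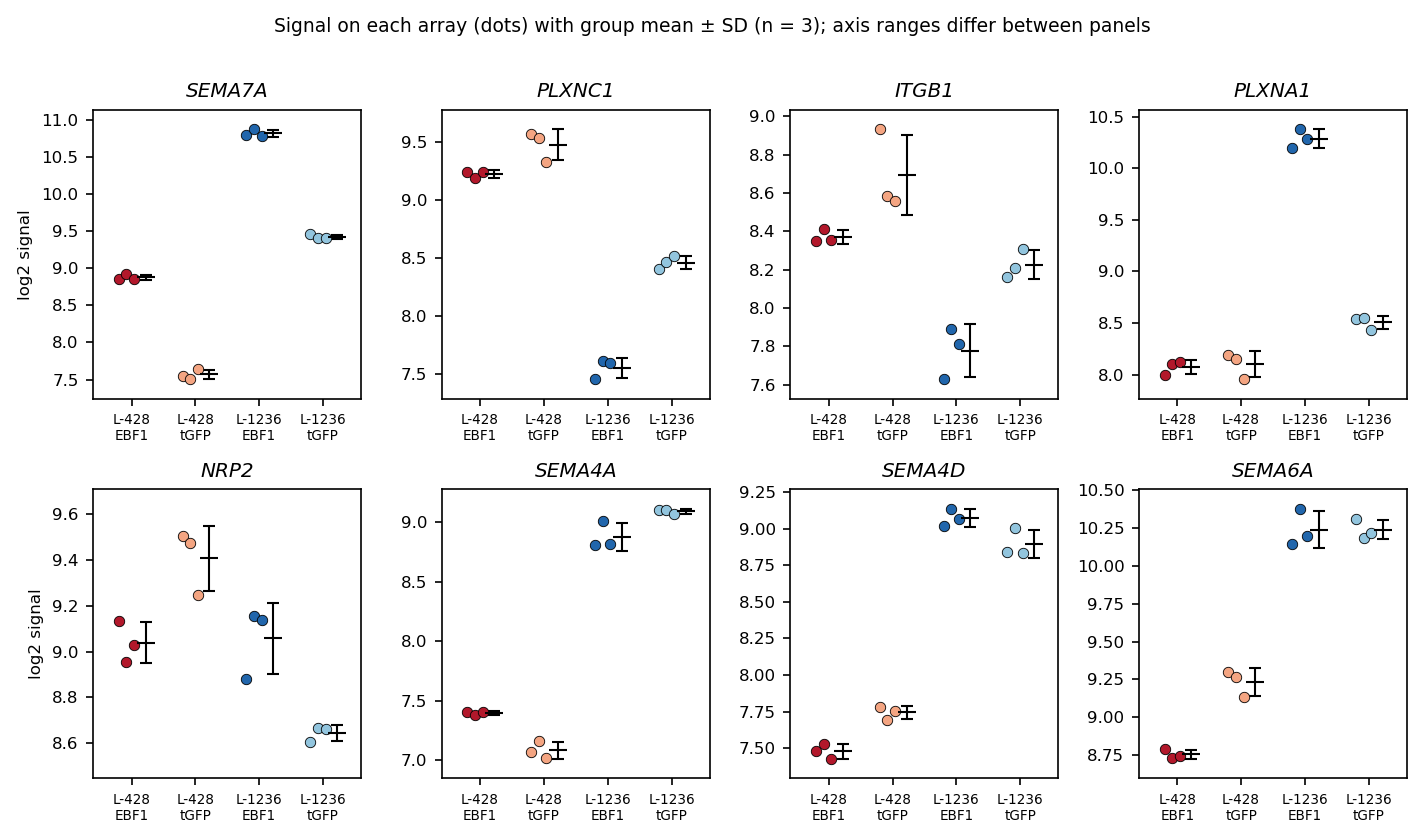
Log2 signal on each array (dots, vertical axis, range differing by panel) in the 4 groups (horizontal axis), with group mean and SD (bars, n = 3). Panels show SEMA7A, its receptor PLXNC1, the integrin chain ITGB1, PLXNA1, NRP2, SEMA4A, SEMA4D and SEMA6A. SEMA7A lay higher and PLXNC1 and ITGB1 lower with EBF1 in both lines, PLXNA1 lay at 10.20 to 10.38 in L-1236 with EBF1 and at 7.95 to 8.55 in the other groups, and NRP2 and SEMA4A moved in opposite directions in the 2 lines.

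Of the 19 semaphorins with a row, SEMA7A aside, SEMA4A, SEMA4B, SEMA4D and SEMA6A passed in L-428 and SEMA4A alone in L-1236. Of all rows, 4.34% passed in L-428 and 9.64% in L-1236, and the L-1236 count is not above that share. SEMA4A, a transmembrane ligand of B-type plexins and PLXND1, was at 7.41, 7.38 and 7.40 in L-428 with tGFP/EBF1, against 7.07, 7.16 and 7.02 with tGFP. It was at 8.80, 9.01 and 8.82 in L-1236 with tGFP/EBF1, against 9.11, 9.10 and 9.07 with tGFP. Groups did not overlap in either line, and the directions were opposite. SEMA4A rose by 0.31 (SE 0.064) in L-428 (limma, adjusted p = 0.00605) and fell by 0.22 (SE 0.064) in L-1236 (limma, adjusted p = 0.0383), a difference of effects of 0.53 (SE 0.090, adjusted p = 0.00142). The L-1236 call was lost in 13 of 24 alternatives (adjusted p between 2.18e-06 and 0.169 over all 24), among them leaving out any array of L-428 tGFP/EBF1 or L-1236 tGFP, or replicate 1 or 3 of L-1236 tGFP/EBF1 (-0.28 to -0.18 over all single arrays left out).

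SEMA4D (CD100), a lymphocyte surface protein that binds B-type plexins and CD72, was at 7.48, 7.53 and 7.43 in L-428 with tGFP/EBF1, against 7.78, 7.70 and 7.76 with tGFP. It was at 9.02, 9.14 and 9.06 in L-1236 with tGFP/EBF1, against 8.84, 9.003 and 8.83 with tGFP. Groups did not overlap in either line. It fell by 0.27 (SE 0.063) in L-428 (limma, adjusted p = 0.0185), and its change of 0.18 in L-1236 did not pass (adjusted p = 0.0846). The L-1236 change passed in 5 of 24 alternatives, among them quantile normalization (0.24, adjusted p = 0.00552) and leaving out replicate 2 of L-1236 tGFP or both arrays that stand apart (adjusted p between 0.00552 and 0.301 over all 24). The effects differed by -0.44 (SE 0.089, adjusted p = 0.00546). The L-428 call was lost after median centring and without replicate 1 of L-428 tGFP or replicate 1 or 3 of L-428 tGFP/EBF1 (adjusted p between 0.0571 and 0.122 in these 4, from 0.00175 over all 24 alternatives). The second, dimmer row of SEMA4D had changes of -0.028 in L-428 and 0.00016 in L-1236, neither of which passed.

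SEMA6A, a transmembrane ligand of PLXNA2 and PLXNA4, was at 8.79, 8.73 and 8.74 in L-428 with tGFP/EBF1, against 9.30, 9.27 and 9.13 with tGFP. In L-1236 it was at 10.14, 10.38 and 10.20 with tGFP/EBF1, against 10.31, 10.19 and 10.22 with tGFP. The L-428 groups lay apart and the L-1236 groups overlapped. SEMA6A fell by 0.48 (SE 0.069) in L-428 (limma, adjusted p = 0.000268), with a change of 0.00032 (SE 0.069) in L-1236, and the effects differed (-0.48, SE 0.098, adjusted p = 0.00617). SEMA4B, another transmembrane class 4 member, was at 7.79, 7.87 and 7.86 in L-428 with tGFP/EBF1, against 8.10, 8.12 and 8.06 with tGFP. It fell by 0.25 (SE 0.054) there (limma, adjusted p = 0.00845), a call lost without replicate 1 of L-428 tGFP/EBF1 (-0.23, adjusted p = 0.0635, against 0.000293 to 0.0635 over all alternatives). Its L-1236 change was -0.021 (adjusted p = 0.886), and the difference of effects did not pass (-0.23, adjusted p = 0.0898). It passed in 5 of 23 alternatives, among them leaving out replicate 3 of L-428 tGFP (adjusted p between 0.00156 and 0.237 over all 23).

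Of the SEMA7A receptor genes, PLXNC1 and ITGB1 fell with EBF1 while SEMA7A was higher, though many alternatives lost the L-428 calls. The integrin gene ITGA1, on the list of pathway genes used below, had no row naming it alone. PLXNC1, a plexin of leukocytes, was at 7.46, 7.61 and 7.60 in L-1236 with tGFP/EBF1, against 8.40, 8.46 and 8.51 with tGFP. It was at 9.24, 9.19 and 9.24 in L-428 with tGFP/EBF1, against 9.57, 9.54 and 9.32 with tGFP. Groups did not overlap in either line. PLXNC1 fell by 0.90 (SE 0.070) in L-1236 (limma, adjusted p = 7.48e-08) and by 0.25 (SE 0.070) in L-428 (limma, adjusted p = 0.0471), and the effects differed by 0.65 (SE 0.098, adjusted p = 0.000479). The L-428 call was lost in 13 of 24 alternatives (adjusted p between 0.00019 and 0.204 over all 24). These included leaving out any array of L-428 tGFP/EBF1 or L-1236 tGFP, replicate 1 or 2 of L-428 tGFP or replicate 3 of L-1236 tGFP/EBF1 (-0.33 to -0.21 over all single arrays left out) and the replicate block (adjusted p = 0.0778).

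ITGB1 encodes the beta-1 integrin chain, a part of the integrins known as SEMA7A receptors. It was at 7.63, 7.89 and 7.81 in L-1236 with tGFP/EBF1, against 8.16, 8.21 and 8.31 with tGFP. In L-428 it was at 8.35, 8.41 and 8.35 with tGFP/EBF1, against 8.93, 8.59 and 8.56 with tGFP. Groups lay apart in both lines. ITGB1 fell by 0.45 (SE 0.088) in L-1236 (limma, adjusted p = 0.00225) and by 0.32 (SE 0.088) in L-428 (limma, adjusted p = 0.0471), and the difference of effects did not pass (0.13, 95% interval -0.13 to 0.39, adjusted p = 0.697). Its L-428 call was lost in 12 of 24 alternatives (adjusted p between 0.000595 and 0.212 over all 24). These included leaving out any array of L-428 tGFP/EBF1 or L-1236 tGFP, or replicate 3 of L-1236 tGFP/EBF1, and the replicate block (adjusted p = 0.0748). Without replicate 1 of L-428 tGFP, the array with the highest ITGB1, the L-428 change was -0.20 (adjusted p = 0.212).

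Among A-type plexins, PLXNA3, a receptor of class 3 semaphorins with neuropilins, was at 9.12, 9.18 and 9.20 in L-1236 with tGFP/EBF1, against 8.79, 8.83 and 8.81 with tGFP. In L-428 it was at 8.65, 8.71 and 8.65 with tGFP/EBF1, against 8.53, 8.50 and 8.38 with tGFP. The groups lay apart in both lines. PLXNA3 rose by 0.36 (SE 0.058) in L-1236 (limma, adjusted p = 0.00036), while 0.20 in L-428 did not pass (adjusted p = 0.0596), and the difference of effects did not pass either (-0.16, adjusted p = 0.356). The L-428 change passed in 4 of 24 alternatives, among them leaving out replicate 1 of L-1236 tGFP/EBF1 (adjusted p between 0.0157 and 0.236 over all 24), and the difference in 4 of 23 (0.00447 to 0.572). PLXNA2 and PLXNA4 did not pass in either line, with changes between -0.044 and 0.064. The B-type plexins PLXNB1, PLXNB2 and PLXNB3, receptors of class 4 semaphorins, and PLXND1, a receptor of SEMA3E, did not pass either, with changes between -0.019 and 0.095.

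NRP2, the co-receptor for SEMA3F and VEGFC, was at 9.13, 8.96 and 9.03 in L-428 with tGFP/EBF1, against 9.51, 9.47 and 9.25 with tGFP. It was at 8.88, 9.15 and 9.14 in L-1236 with tGFP/EBF1, against 8.61, 8.67 and 8.66 with tGFP. Control levels thus lay apart by line, while the EBF1 groups overlapped between lines. NRP2 fell by 0.37 (SE 0.081) in L-428 (limma, adjusted p = 0.0114) and rose by 0.41 (SE 0.081) in L-1236 (limma, adjusted p = 0.0022). The difference of effects was -0.78 (SE 0.11, adjusted p = 0.000371). The L-428 call was lost after median centring and without replicate 1 or 2 of L-428 tGFP or replicate 2 or 3 of L-428 tGFP/EBF1 (adjusted p between 0.0541 and 0.0796 in these 5, from 2.58e-05 over all 24 alternatives).

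The second NRP2 row had changes of -0.17 in L-428 (adjusted p = 0.295) and 0.25 in L-1236 (adjusted p = 0.0378), with a difference of -0.41 (adjusted p = 0.0239). Both calls were lost in 10 alternatives each, among them leaving out any array of L-428 tGFP/EBF1, replicate 1 or 3 of L-1236 tGFP or replicate 3 of L-1236 tGFP/EBF1. The L-1236 call was also lost without replicate 2 of L-1236 tGFP or of L-1236 tGFP/EBF1 (adjusted p between 4.75e-05 and 0.166 over all alternatives), and the difference without replicate 1 or 2 of L-428 tGFP (4.95e-05 to 0.123). NRP1, the co-receptor for SEMA3A, did not pass, at -0.12 in L-428 and 0.047 in L-1236.

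Over the 28 genes taken by name, 1 rose and 5 fell in L-428 with EBF1, or 21.4%, against 4.34% of all rows (2.62% higher and 1.72% lower). The median change was -0.012, against 0.0037 over all rows. After quantile normalization the split was 2 higher and 5 lower, and after median centring 1 and 2. Without replicate 1 of L-428 tGFP, or replicate 1 or 3 of L-428 tGFP/EBF1, 3 genes passed in place of 6. In L-1236, 2 rose and 2 fell, or 14.3%, against 9.64% of all rows (3.69% higher and 5.95% lower), with a median of 0.047 against 0.008. The split was 3 and 1 after quantile normalization and 2 and 1 after median centring. The effects of the 2 lines differed for 5 genes, or 17.9%, against 5.16% of all rows (3.38% higher and 1.79% lower), with 2 above 0 and 3 below (2 and 5 after quantile normalization). The family was chosen on these contrasts and the counts are given as a description. None of the 28 passed at 2-fold in limma in either line, and 7 in each line had an unadjusted p under 0.05, while the share of all rows at that p was 14.3% in L-428 and 20.8% in L-1236. Of all rows, 0.0973% passed at 2-fold in L-428 (0.0779% higher and 0.0195% lower), 0.146% in L-1236 (0.0876% higher and 0.0584% lower) and 0.156% for the difference of effects (0.0779% each way), where none of the 28 did either.

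**Figure D2:**
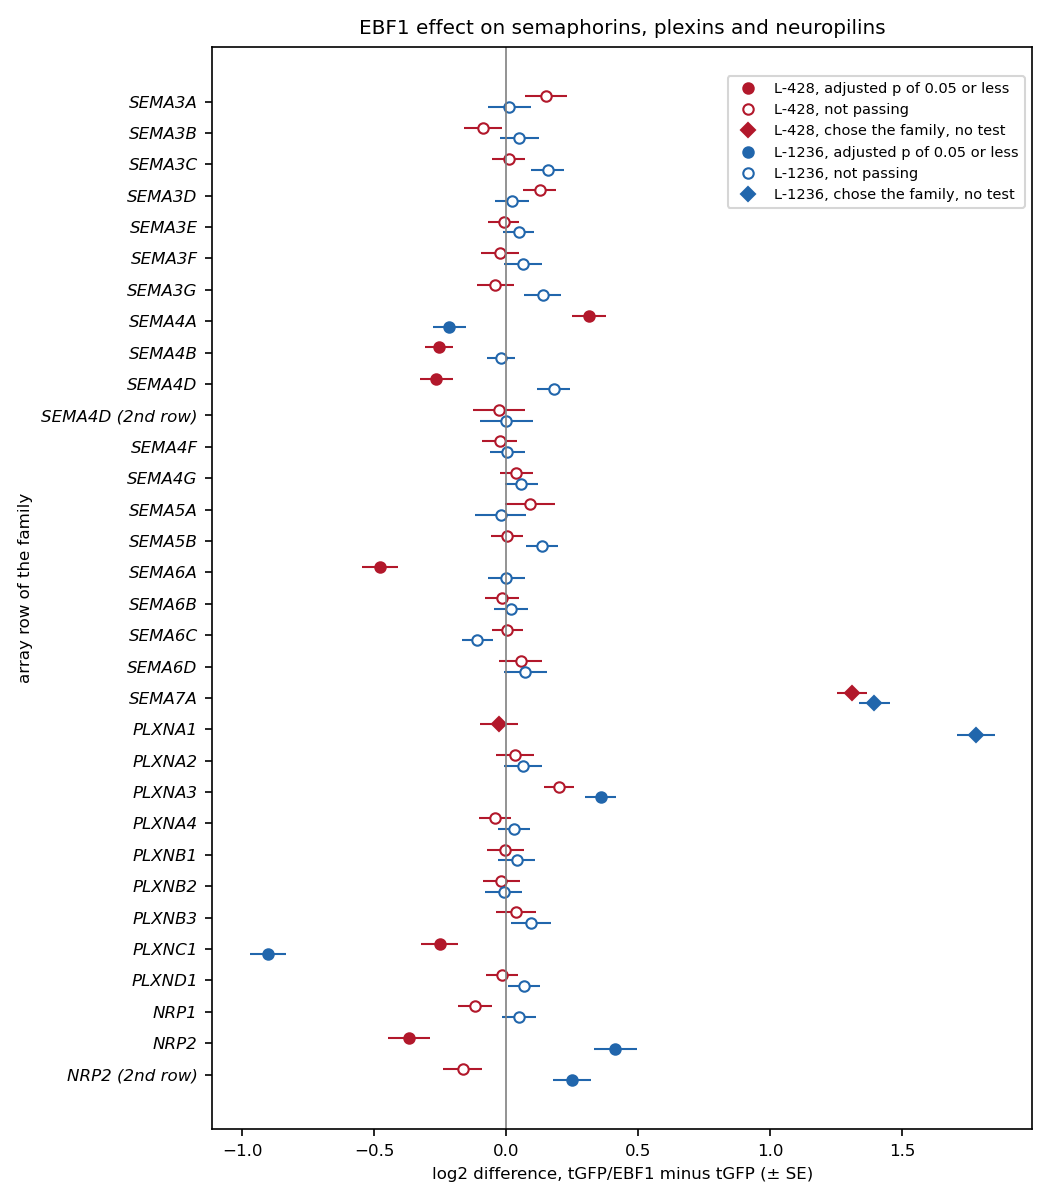
Change with EBF1 (horizontal axis, log2 difference tGFP/EBF1 minus tGFP, bars SE) of each of the 32 family rows (vertical axis) in L-428 (red) and L-1236 (blue), where filled circles passed an adjusted p of 0.05, open circles did not and diamonds mark SEMA7A and PLXNA1, which were not tested. SEMA7A lies at 1.31 and 1.40, PLXNA1 at -0.028 and 1.78 and PLXNC1 at -0.25 and -0.90, while most rows lie near 0.

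The members that did not pass were in large part rows of low signal. Of the 30 genes, 14 lay below the array median on all 12 arrays, namely SEMA3A, SEMA3B, SEMA3C, SEMA3D, SEMA3E, SEMA3F, SEMA4G, SEMA5B, SEMA6D, PLXNA2, PLXNA4, PLXNB1, PLXND1 and NRP1. Another 11 lay above it on all arrays: SEMA4B, SEMA4D, SEMA4F, SEMA6A, SEMA6C, SEMA7A, PLXNA1, PLXNA3, PLXNB2, PLXNC1 and NRP2. No background signal was used here, so a low row is not shown to be silent. None of the 7 class 3 semaphorins, the secreted ligands that use neuropilins, passed in limma in either line with EBF1, where 4.34% of all rows passed in L-428 and 9.64% in L-1236. A count of 0 of 7 lies near those shares. At an unadjusted p under 0.05 there was 1, SEMA3C in L-1236. With array weights SEMA3C and SEMA3G passed in L-1236, and with weights by a gene-by-gene method SEMA3C alone. SEMA3C also passed for the difference of effects with both weightings. The changes of the 7 ran from -0.088 (SEMA3B) to 0.15 (SEMA3A) in L-428. In L-1236 they ran from 0.012 (SEMA3A) to 0.16 (SEMA3C).

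The control cells were then compared between lines, a contrast that the choice of the family did not use. The tGFP arrays also entered the EBF1 contrasts through which SEMA7A and PLXNA1 chose the family. For these genes the control tests are therefore not independent of that choice. SEMA4A and SEMA7A were lower in L-428 tGFP than in L-1236 tGFP cells, with log2 differences of -2.01 (SE 0.064, 4.03-fold) and -1.86 (SE 0.058, 3.63-fold) (limma, adjusted p = 3.96e-15 and 2.79e-15). SEMA4D (-1.15) and SEMA6A (-1.01) were lower in L-428 as well (limma, adjusted p = 1.25e-11 and 3.44e-10). The second SEMA4D row differed as well (-0.29, 1.22-fold, adjusted p = 0.0204). Its call was lost after median centring and without replicate 1 or 2 of L-428 tGFP or replicate 2 of L-1236 tGFP (adjusted p between 9.07e-05 and 0.123 over all alternatives). SEMA5A, a transmembrane semaphorin with thrombospondin repeats, was at 8.42, 8.40 and 8.39 in L-428 tGFP cells, against 6.89, 6.94 and 6.98 in L-1236 tGFP cells. It was higher by 1.47 (SE 0.096, adjusted p = 1.62e-10), and its changes with EBF1 did not pass (0.089 in L-428 and -0.022 in L-1236).

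PLXNC1 was higher in L-428 tGFP cells by 1.02 (SE 0.070, adjusted p = 3.35e-10), so the line with less SEMA7A had more of its plexin. NRP2 was higher by 0.76 (adjusted p = 1.61e-07) and the second NRP2 row by 0.37 (adjusted p = 0.000245). PLXNA1 (-0.41), PLXNB1 (-0.37), PLXNA3 (-0.34) and PLXND1 (-0.20) were lower in L-428 (limma, adjusted p between 5.24e-05 and 0.00928). SEMA3A (0.51) and SEMA3C (0.30) were higher and SEMA4F (-0.26) and SEMA6C (-0.17) lower (limma, adjusted p between 2.27e-05 and 0.0197). The SEMA6C call was lost after median centring and without replicate 1 or 2 of L-428 tGFP or replicate 1 of L-1236 tGFP (adjusted p between 0.0736 and 0.101 in these 4, from 0.0011 over all 24 alternatives). SEMA3A, SEMA3C, PLXNB1 and PLXND1 belong to the rows below the array median.

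In all, 15 of the 30 genes differed between the control lines, 5 higher and 10 lower in L-428, against 47.9% of all rows (26.1% higher and 21.7% lower). The share lies near that of all rows. At 2-fold or more there were 6 of the 30, with 2 higher and 4 lower, and SEMA7A was among them. That is a larger share than the 7.20% of all rows (4.16% higher and 3.04% lower). The median difference was -0.029, against -0.0063 over all rows. The 15 genes that did not pass differed by -0.082 to 0.056.

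**Figure D3:**
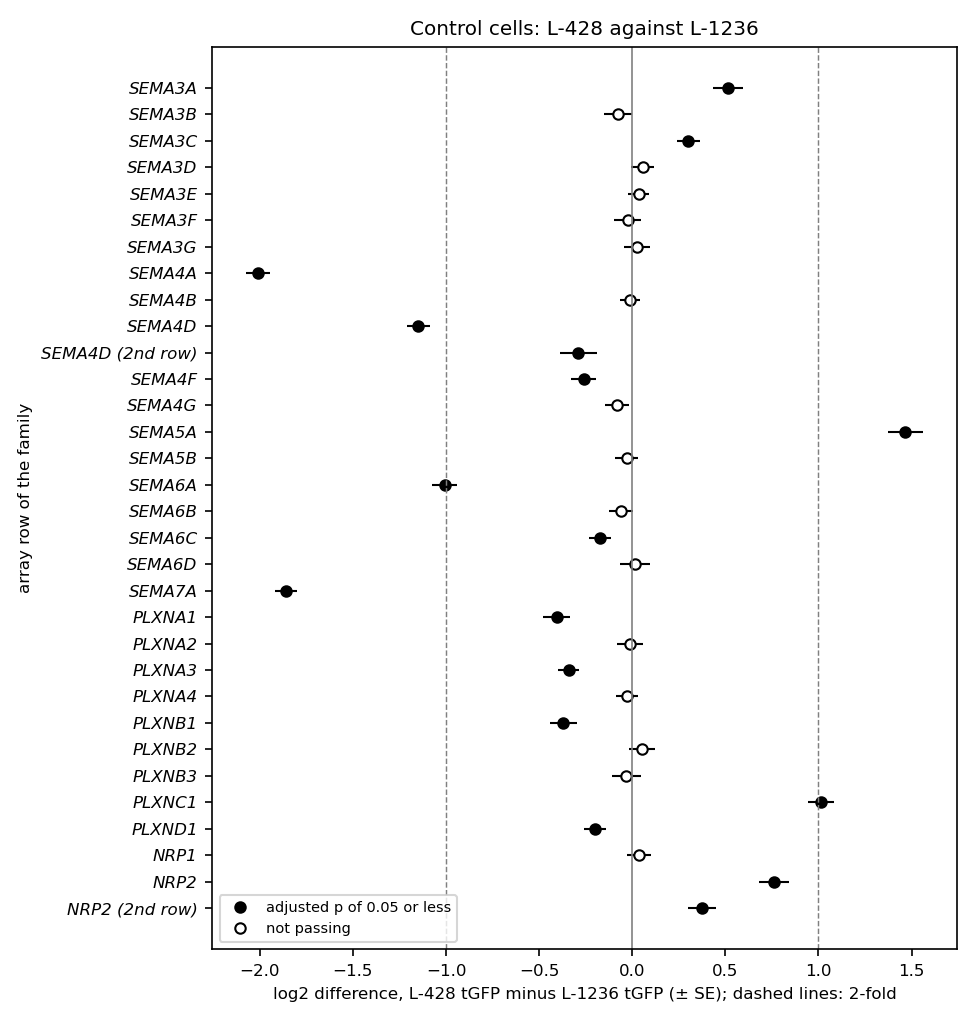
Difference between control cells (horizontal axis, log2, L-428 tGFP minus L-1236 tGFP, bars SE) for each of the 32 family rows (vertical axis), with dashed lines at 2-fold and filled circles for an adjusted p of 0.05 or less. SEMA4A at -2.01, SEMA7A at -1.86, SEMA4D at -1.15 and SEMA6A at -1.01 lie to the left, and SEMA5A at 1.47 and PLXNC1 at 1.02 to the right.

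Other genes of the pathway were taken from a list of 66 co-receptors, other ligands of neuropilins and signalling proteins, of which 61 had a row. In L-428 with EBF1, 2 rose and 3 fell, or 8.20%, against 4.34% of all rows. CD44, a hyaluronan receptor, rose by 0.47 (SE 0.077, adjusted p = 0.00105) and the Src-family kinase FYN by 0.33 (SE 0.066, adjusted p = 0.00531). MICAL2, an enzyme that oxidises actin, fell by 0.40 (SE 0.087, adjusted p = 0.00937), the scaffold protein RANBP9 by 0.33 (SE 0.072, adjusted p = 0.00989) and ITGB1 as given above. The MICAL2 call was lost without replicate 1 of L-428 tGFP/EBF1 (-0.36, adjusted p = 0.0643, from 0.00118 over all alternatives). The RANBP9 call was lost after median centring and without replicate 2 of L-428 tGFP or replicate 2 or 3 of L-428 tGFP/EBF1 (adjusted p between 0.0519 and 0.0744 in these 4, from 4.25e-05 over all alternatives). Of the 61 genes, the effects of the 2 lines differed in limma for CD44 (0.41, adjusted p = 0.0359) and FYN (0.46, adjusted p = 0.00549). They also differed for MICAL2 (-0.49, adjusted p = 0.0224) and MICAL1 (-0.36, adjusted p = 0.0397). Of all rows, 5.16% differed, and the partner count lies near that share. The differences of these genes were not repeated under the alternatives. For the L-428 contrast, 8 genes passed without replicate 3 of L-428 tGFP, and 3 without any 1 array of L-428 tGFP/EBF1. The split was 2 higher and 5 lower after quantile normalization and 2 and 1 after median centring.

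In L-1236 with EBF1, 3 of the 61 rose and 3 fell, or 9.84%, against 9.64% of all rows, a share near that of all rows. SH3BP1, which turns off Rac, rose by 0.27 (SE 0.071, adjusted p = 0.0177), DPYSL2, a mediator of SEMA3A signals in neurons, by 0.27 (SE 0.076, adjusted p = 0.0311), and MICAL1, a plexin-bound relative of MICAL2, by 0.25 (SE 0.070, adjusted p = 0.0299). RANBP9 fell by 0.32 (SE 0.072, adjusted p = 0.00687), with ITGB1 as above. RANBP9 and ITGB1 kept their L-1236 calls in all 24 alternatives, while MICAL1, DPYSL2 and SH3BP1 lost theirs in 8, 8 and 4. Leaving out replicate 2 or 3 of L-1236 tGFP ended all 3 of these calls. Leaving out replicate 1 of L-1236 tGFP/EBF1 ended those of MICAL1 and SH3BP1, and replicate 1 of L-1236 tGFP or replicate 2 or 3 of L-1236 tGFP/EBF1 those of MICAL1 and DPYSL2. Adjusted p ran from 1.11e-05 to 0.138 over all alternatives of these 3 genes. Between 2 and 7 genes passed when single arrays were left out, with 2 without replicate 2 or 3 of L-1236 tGFP and 3 without replicate 1 or 3 of L-1236 tGFP/EBF1. The split was 6 higher and 3 lower after quantile normalization and 0 and 2 after median centring.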

How the data were processed

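The deposited table holds 1 log2 value per row and array for 12 Affymetrix whole-transcript arrays. Per the labels' protocols, RNA was amplified and biotin-labelled with whole-transcript kits. How the authors summarized and normalized these log2 values, and the log base, is not stated in the labels or headers. The base was taken as 2 because values reach 14.3. The table has 32321 rows. By the platform annotation 19158 rows name 1 gene, 1388 name more than 1 and 11775 are unnamed. All 30 family gene IDs matched RefSeq (GRCh38.p14) under the same symbol. Array coordinates were not used.

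The values were fitted unscaled in limma 3.58.1 (R 4.3.3) with 4 group means over 12 arrays (8 residual and 9.98 prior degrees of freedom), with Benjamini-Hochberg adjustment over the 20546 rows with a symbol. The script was tested on simulated data. Family, partner list and tests were chosen with earlier results of these data known. By rule, the text names SEMA7A, PLXNA1, PLXNC1, ITGB1, the members that passed in any contrast, with array values past 1.5-fold, and up to 6 passing partners per direction and line, except 1 passing partner in L-1236 that is not reported here. Outside that rule, SEMA4B and PLXNA3 are given by array, chosen after their values were seen. Figures used matplotlib 3.10.9 under Python 3.11.15.

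The fit was repeated with median-centred or quantile-normalized arrays, bright rows only, all rows of the table, 1 row per symbol, trend, robust variance, array weights, a replicate block, only the groups compared, each array left out, both arrays that stand apart left out and other thresholds.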

Additional observations from a re-analysis of the deposited data

Results flagged for a closer look

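For 5 family members the EBF1 effect differed between the lines in a test of the difference itself (L-428 minus L-1236, limma, adjusted over all rows). NRP2 had a difference of -0.78 (adjusted p = 0.000371), falling in L-428 and rising in L-1236. PLXNC1 had 0.65 (adjusted p = 0.000479), with the larger fall in L-1236. SEMA4A had 0.53 (adjusted p = 0.00142), with opposite directions. SEMA4D had -0.44 (adjusted p = 0.00546) and SEMA6A -0.48 (adjusted p = 0.00617), both lower with EBF1 in L-428. These 5 differences are of the row that stands for each gene. They kept their direction and passed under all 23 alternatives run for them, with adjusted p between 1.99e-08 and 0.0413. The second SEMA4D row had a difference of -0.029, which did not pass (limma, adjusted p = 0.957). The second NRP2 row passed with -0.41, but its call was lost in 10 of 22 alternatives. The EBF1 row itself had a difference of effects of -1.46, and its control level was higher in L-428 by 1.27 on the log2 scale. The part of that in the other differences was not tested.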

How the results depend on the processing

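For named genes, 1486 values were counted, each under at most 24 of the 26 alternatives. Other thresholds were applied only to counts of genes. Values that had not passed were followed for only some genes. Not followed were SEMA3C, SEMA3G, SEMA5B, SEMA6D, PLXND1 and NRP1, which gained L-1236 calls with array weights. NRP1 also passed for the difference of effects with those weights. In these counts 1345 stayed the same, that is in direction and side of the threshold for tested values. For the untested SEMA7A and PLXNA1, the same means a shift smaller than the spread between replicates. Of the rest, 108 lost a call and 18 gained one (SEMA4D in L-1236, PLXNA3 in L-428 and the differences of SEMA4B and PLXNA3). Another 6, of SEMA7A and PLXNA1, moved by more than that spread. After quantile normalization the change of SEMA7A was 1.23 in L-428, that of PLXNA1 1.87 in L-1236 and the difference of SEMA7A effects -0.21. With array weights and gene-by-gene weights that SEMA7A difference was -0.03 and -0.035, and without both arrays that stand apart the PLXNA1 difference was -1.92. The 9 counted as sign changes belong to tested values that had not passed. SEMA4B in L-1236 was 0.012 after quantile normalization. The ITGB1 difference of effects was -0.0034 with array weights and -0.015 without both arrays that stand apart. SEMA6A in L-1236 was -0.0018 after median centring, -0.021 with array weights and -0.00861 with gene-by-gene weights. With single arrays left out SEMA6A ran from -0.069 to 0.049 there. The untested PLXNA1 change in L-428, below the replicate spread, also crossed 0 (-0.10 to 0.018 over alternatives) and was not among the 9. The default array weights did not converge and gave replicate 3 of L-1236 tGFP/EBF1 a weight of 36.7, so the gene-by-gene method was added after seeing the data.

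Member counts in L-428 (6) were 3 after median centring, 3 at an adjusted p of 0.01, 0 at 1.5-fold and 3 to 7 with single arrays left out. In L-1236 (4) they were 11 with array weights, 7 with gene-by-gene weights, 1 at 1.5-fold and 3 to 4 with single arrays left out. For the difference of effects (5) they were 9, 8, 2 and 5 to 6 in the same order, and between control lines (15) 7 at 1.5-fold and 14 to 17. Partner counts in L-428 (5) were 3 after median centring, 9 with either weighting, 9 without both arrays that stand apart, 0 at 1.5-fold and 3 to 8 with single arrays left out. In L-1236 (6) they were 2 after median centring, 3 with every row, 25 with array weights, 13 with gene-by-gene weights, 10 without both arrays, 2 at an adjusted p of 0.01, 0 at 1.5-fold and 2 to 7. The cause was not tested, except that a stricter threshold on the same fit cannot pass more rows. With arrays left out, counts went both up and down.

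Same-numbered replicates of a line had deviations correlated at 0.23, -0.21 and -0.02 in L-428 and 0.28, -0.074 and 0.19 in L-1236, so the numbers were not taken to pair samples. With the replicate block, 5, 4, 5 and 15 members passed in these 4 contrasts, and 4 and 6 partners. Among named genes the block ended the L-428 calls of PLXNC1 and ITGB1 and no other call. Signal over background was not available here, which limits the rows of low signal.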
